A study of Mus musculus with 6 samples.

Results

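The expression of 8 genes of Schwann cells and peripheral myelin was followed in skeletal muscle of 3 mouse genotypes, library by library. The genes were taken by name: Mbp, Pmp22, Prx, Mag, Cnp, Mal, Sox10 and Egr2. They are 8 of the 53342 genes in the deposited table, and all 8 were among the 16881 genes expressed highly enough to be tested. The 6 libraries, 2 per genotype, were made from male mice with a SMARTer mRNA kit on total RNA. Control mice were floxed animals without Cre. LDKO mice (Irs1L/L:Irs2L/L:CreAlb) carried floxed Irs1 and Irs2 with Cre under the albumin promoter, so the deletion was directed to the liver and not to the muscle that was sequenced. LTKOFstL/L mice were LDKO mice crossed with FstL/L mice, whose follistatin gene Fst has loxP sites before exon 2 and after exon 5. The study text gives chow between 5 and 16 weeks for these mice, whereas the treatment label of each sample reads high fat diet, so the diet of the animals is not settled here. Nothing in the labels ties the paired libraries of a genotype to separate animals, so a p-value here reflects the spread among these samples, which may be technical.

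Schwann cells wrap the axons of motor and sensory nerves, and whole muscle contains the nerve branches that run between its fibres. A myelinating Schwann cell lays down a multilayered sheath of membrane whose compact part is held together by basic and membrane-spanning proteins, while adhesion molecules face the axon. The transcription factor Sox10 is needed throughout the Schwann cell lineage, and Egr2 (also called Krox20), which acts with Sox10, switches on the myelin genes. Some of these genes are not confined to nerve: Pmp22 is also expressed in fibroblasts, Mal in epithelia and Egr2 in several activated cell types.

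The RefSeq promoter table (GRCm38.p6) held 15 windows for 6 of the 8 genes, each from 250 bases before to 50 bases after a start site. The core letters of a SOX binding motif, ACAAAG on either strand, occurred in 3 of these windows, 1 of Cnp and 2 overlapping ones of Mag. Of all 32851 windows in the table, 18.7% held these letters. The Cnp window and a Mag window are shown because they are the promoters among the members that carry the core motif of the Schwann cell factor Sox10. They are written 5′ to 3′ on the gene's strand, with the 6 letters of the match in capitals.
Cnp, chr11:100574689-100574988, plus strand: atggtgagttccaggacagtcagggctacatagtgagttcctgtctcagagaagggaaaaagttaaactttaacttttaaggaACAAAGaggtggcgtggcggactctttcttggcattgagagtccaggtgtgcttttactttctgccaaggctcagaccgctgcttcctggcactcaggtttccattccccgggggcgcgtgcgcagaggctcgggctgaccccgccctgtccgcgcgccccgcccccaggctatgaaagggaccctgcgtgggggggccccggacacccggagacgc
Mag, chr7:30914814-30915113, minus strand: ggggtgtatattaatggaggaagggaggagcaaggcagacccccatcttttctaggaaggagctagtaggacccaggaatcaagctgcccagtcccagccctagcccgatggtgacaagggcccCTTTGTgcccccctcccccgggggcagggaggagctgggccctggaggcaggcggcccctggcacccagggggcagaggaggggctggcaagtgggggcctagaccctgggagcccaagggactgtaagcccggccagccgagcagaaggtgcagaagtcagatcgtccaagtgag
The match began 167 bases before the start site in Cnp. In Mag it began 126 bases before the start site and lies on the opposite strand, as CTTTGT. A core motif of EGR factors, GCGNGGGCG on either strand (N is any base), was in 0 of the 15 windows and in 5.55% of all windows. A match describes letters in a window and is not a binding site, and the absence of letters from these windows says nothing about Egr2.

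On GRCm38 with GENCODE M21, Mbp lies at chr18:82475146-82585637 on the plus strand, Pmp22 at chr11:63128982-63159547 (plus), Prx at chr7:27499324-27520214 (plus) and Mag at chr7:30899176-30914873 (minus). Cnp lies at chr11:100574904-100591729 (plus), Mal at chr2:127633226-127656695 (minus), Sox10 at chr15:79154908-79165240 (minus) and Egr2 at chr10:67535475-67542188 (plus). All 8 are annotated as protein coding. Exons of Prx overlap the antisense gene Gm15541, and exons of Cnp overlap Dnajc7 on the other strand. Whether the counting used strand is not given in the sources used here, so reads of these overlapping pairs cannot be told apart.

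The deposited values are log2 expression values from which the authors' processing had removed each gene's level, since every gene is centred on the median of the 6 libraries. A value of 0.83 thus means that a library lay 0.83 log2 units above the middle of the 6, and levels of different genes cannot be set against each other. Approximate levels were recovered from the rounding of the stored numbers as brackets. Sequencing depth is unknown, as these values carry no read totals, and a single read was worth 1.76 to 2.12 scaled units. The number of genes above the floor ranged over libraries from 23699 to 24394. At its median library Egr2 was at 16 to 20.4 scaled units, or about 7.55 to 11.6 reads, the lowest bracket of the 8 genes. Sox10 was at 19.3 to 140 reads and Mag at 11.9 to 140 reads. Mal was at 121 to 156 reads, and Cnp, Pmp22, Prx and Mbp each had at least 159 reads.

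The tissue label was checked against 15 structural genes of skeletal muscle, all of which were tested and 13 of which had a log2 level of at least 16. Their median stayed between −0.09 and 0.26 across the libraries. None of 7 oligodendrocyte genes reached the level needed for testing, and Opalin and Olig2 were at the floor in all 6 libraries. The targeted genes were measured outside the organ of the deletion and do not check the labels. Their mean log2 differences from Control were −0.41 (Irs1), −0.86 (Irs2) and −0.77 (Fst) in LDKO, none of which passed the test. In LTKOFstL/L, Irs2 fell by 2.31 against Control (adjusted p = 0.039) but did not pass against LDKO (−1.45, adjusted p = 0.113). Fst, the gene targeted in the liver of these mice, rose by 1.97 against LDKO (adjusted p = 0.035). Against Control its difference of 1.20 did not pass (adjusted p = 0.162). Single libraries stood apart in other genes. The median of 24 tested pancreatic acinar genes was 12.5 in Control replicate 1 and 8.47 in Control replicate 2, against −1.77 to 1.04 in the other 4 libraries, and 22 of the 24 passed the test as higher in Control than in LDKO. These are transcripts of the pancreas and not of muscle, and whether pancreatic RNA was carried into the Control samples was not tested. Control replicate 1, which had the most of them, was also the highest library for all 8 members, and without it their median difference between LDKO and Control was −0.56 in place of −0.87. LDKO replicate 1 was the highest library for 23.9% of tested genes and the lowest for 23.9%.

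The members that encode proteins of compact myelin were highest in Control replicate 1 and lowest in LDKO replicate 1. Mbp, which encodes myelin basic protein on the cytoplasmic face of compact myelin, was at 0.83 and 0.17 in Control replicates 1 and 2, at −1.18 and −0.11 in LDKO replicates 1 and 2, and at 0.11 and −0.58 in LTKOFstL/L replicates 1 and 2. Both LDKO and both LTKOFstL/L libraries lay below both Control libraries, and the whole span was 2.01 log2 units, or 4.04-fold. Pmp22, a membrane-spanning protein of compact peripheral myelin whose duplication in humans causes a hereditary neuropathy, was at 0.62 and 0.10 in Control, at −0.89 and −0.10 in LDKO, and at 0.44 and −0.26 in LTKOFstL/L. The second LDKO library was thus close to the middle of the 6, and the low LDKO mean came from the first. Mal, a small lipid-raft protein of myelin and of some epithelia, was at 0.77 and 0.10 in Control, at −1.20 and −0.10 in LDKO, and at 0.65 and −0.40 in LTKOFstL/L. Its LTKOFstL/L libraries lay 1.05 apart, on both sides of Control replicate 2.

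The members whose proteins sit outside the compact layers followed the same order at the ends. Prx encodes periaxin, a scaffold beneath the outer Schwann cell membrane, and was at 0.79 and 0.07 in Control, at −0.87 and −0.07 in LDKO, and at 0.12 and −0.45 in LTKOFstL/L. Mag encodes an adhesion protein on the membrane that faces the axon, and was at 0.74 and −0.04 in Control, at −0.63 and −0.15 in LDKO, and at 0.40 and 0.04 in LTKOFstL/L. For Mag, LTKOFstL/L replicate 2 lay above Control replicate 2. Cnp encodes a phosphodiesterase of the non-compact myelin cytoplasm, and was at 0.49 and −0.03 in Control, at −0.35 and 0.02 in LDKO, and at 0.06 and −0.02 in LTKOFstL/L. Its span of 0.85 log2 units (1.80-fold) was the narrowest of the 8 genes. The gene that overlaps Cnp, Dnajc7, was at −0.07 and −0.21 in Control, at 0.23 and −0.04 in LDKO, and at 0.04 and 0.06 in LTKOFstL/L, so it was highest where Cnp was lowest.

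Both transcription factors also had their highest value in Control replicate 1. Sox10 was at 0.52 and −0.04 in Control, at −1.32 and 0.04 in LDKO, and at 0.28 and −0.58 in LTKOFstL/L. Its LDKO libraries were 1.35 apart, and LDKO replicate 2 lay above Control replicate 2. Egr2 was at 1.72 and −0.40 in Control, at −0.56 and 0.40 in LDKO, and at 1.12 and −0.61 in LTKOFstL/L. It had the widest span, 2.33 log2 units (5.03-fold), and was the 1 member whose lowest library was not LDKO replicate 1 but LTKOFstL/L replicate 2.

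**Figure D1:**
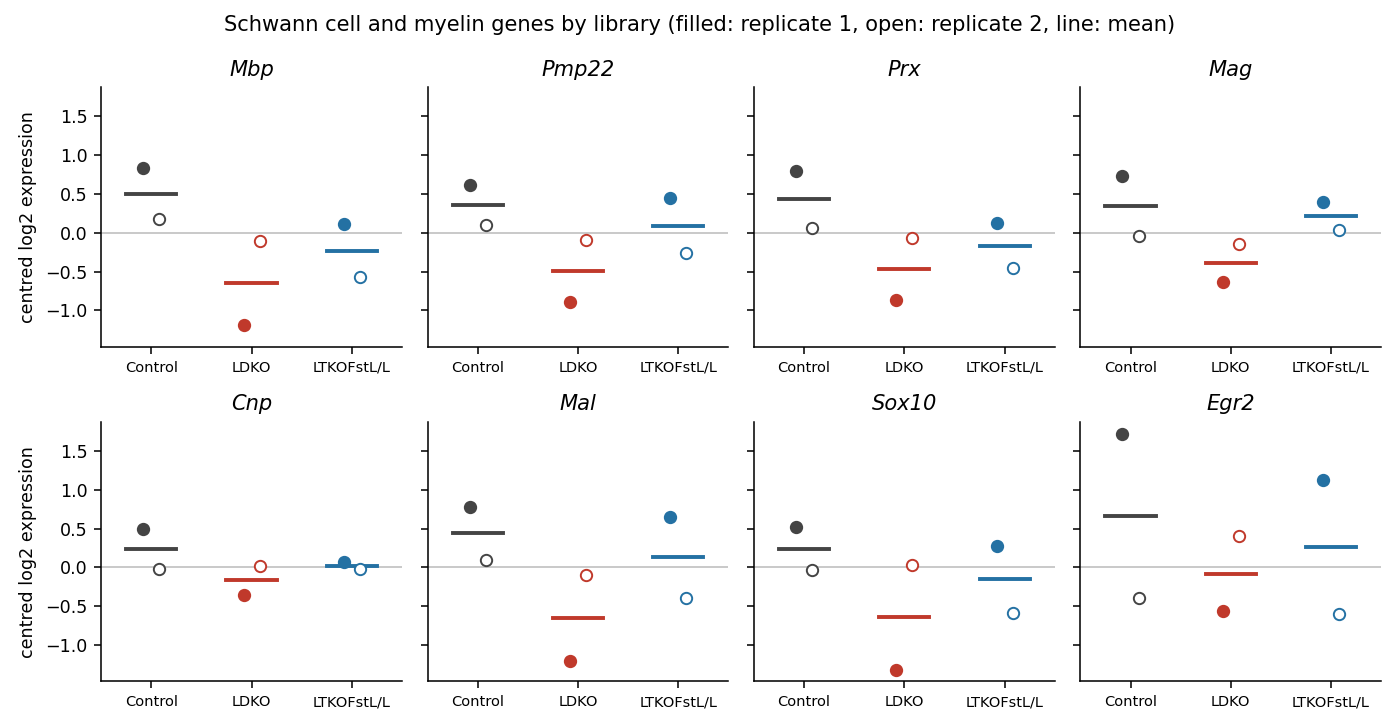
Centred log2 expression of the 8 genes (vertical axis) in the 3 genotypes (horizontal axis), with replicate 1 filled, replicate 2 open and the genotype mean as a line. Control replicate 1 is the highest point in all 8 panels and LDKO replicate 1 the lowest in 7, at −1.32 for Sox10 and −1.18 for Mbp.

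The members thus shared their highest library and, apart from Egr2, their lowest, while the order of the libraries between these ends varied. The Control libraries had member medians of 0.75 and 0.02, those of LDKO −0.88 and −0.08, and those of LTKOFstL/L 0.34 and −0.43, a 3.10-fold span from LDKO replicate 1 to Control replicate 1. Control replicate 1 was the highest library for 8 of 8 members and for 11.4% of all tested genes. LDKO replicate 1 was the lowest for 7 of 8 members and for 23.9% of all tested genes. Both held for 7 members and for 399 tested genes, or 2.36%. In a bulk tissue, fewer Schwann cells in a sample and less RNA of these genes per Schwann cell cannot be told apart.

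The libraries of a genotype also differed from each other in the members. Replicate 1 lay above replicate 2 for 8 of 8 members in Control, with a median gap of 0.66 (0.52 to 2.12). In LDKO it lay below for 8 of 8, with a median gap of −0.88 (−1.35 to −0.37), and in LTKOFstL/L above for 8 of 8, with a median gap of 0.69 (0.08 to 1.73). These gaps are 1.58-fold, 1.84-fold and 1.62-fold between libraries that carry the same label. Of all tested genes, 10.9% had this combination of signs. Between the 5th and 95th percentiles, the gaps of all tested genes ran from −0.91 to 0.86 in Control, from −1.06 to 0.87 in LDKO and from −0.79 to 0.83 in LTKOFstL/L. Outside these ranges lay Egr2 in Control, Mbp, Mal and Sox10 in LDKO, and Mal, Sox10 and Egr2 in LTKOFstL/L.

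**Figure D2:**
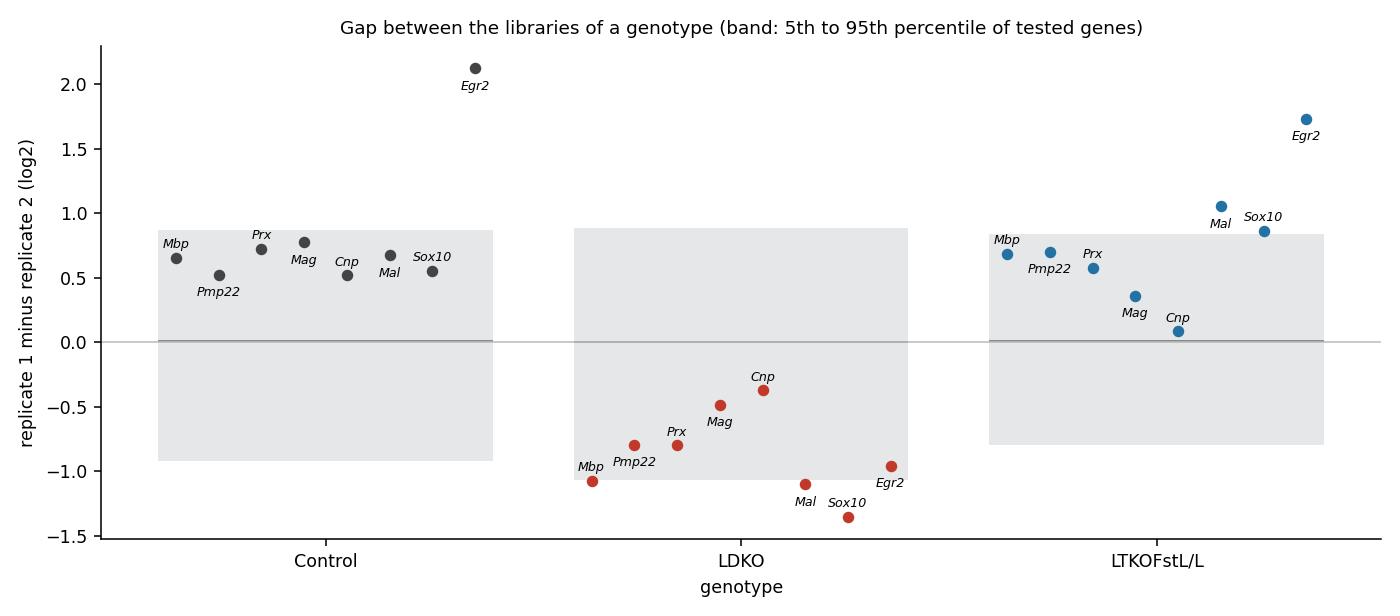
Difference between replicate 1 and replicate 2 of each genotype in log2 units (vertical axis) for the 8 genes, with a grey band from the 5th to the 95th percentile of all tested genes. All 8 points are above 0 in Control and LTKOFstL/L and below 0 in LDKO.

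The first comparison, LDKO against Control, sets mice with the liver deletion of both insulin receptor substrates against floxed mice without Cre. The presence of Cre and other differences between the mouse lines or samples cannot be told apart from that deletion. All 8 members had a lower mean in LDKO, with a median difference of −0.87 where the median of all tested genes was 0.00 and 49.8% of them had a lower mean. None of the 8 passed the test (limma, adjusted over all tested genes), in a comparison where 0.231% of genes passed. Mbp differed by −1.15 ± 0.40 (SE, n = 2 per group), a 2.21-fold lower mean with an adjusted p of 0.643. Mal differed by −1.09 ± 0.49 (adjusted p = 0.736), Prx by −0.90 ± 0.35 (adjusted p = 0.687) and Pmp22 by −0.85 ± 0.34 (adjusted p = 0.693). The remaining differences were −0.88 for Sox10, −0.74 for Mag, −0.74 for Egr2 and −0.40 for Cnp, with adjusted p-values from 0.758 to 0.892. Before adjustment 3 members, Mbp, Pmp22 and Prx, had a p under 0.05, as did 7.01% of all tested genes. The 2 LDKO libraries lay below both Control libraries for 5 members, Mbp, Pmp22, Prx, Mag and Mal, and for 17.1% of all tested genes. The 95% interval of the Mbp difference ran from −2.10 to −0.20 and that of Egr2 from −2.78 to 1.30.

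The size of these differences depended on which library was left out. Without LDKO replicate 1 the median difference of the members was −0.47, and without LDKO replicate 2 it was −1.27. Without Control replicate 2 it was −1.21. The Mbp difference was −0.61 without LDKO replicate 1 and −1.69 without LDKO replicate 2. For Sox10 the corresponding values were −0.21 and −1.56. For Egr2 the direction changed, to 0.32, without Control replicate 1. The gap between the Control libraries was larger than the LDKO difference for Mag, Cnp and Egr2, and the gap between the LDKO libraries was larger for Mal, Sox10 and Egr2.

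The authors' deposited table of LDKO against Control, which holds only genes with a log2 change of at least 1.00 in size and a corrected p under 0.05, lists 2 members. Mbp stands in the authors' deposited table at −1.15 and Mal at −1.09, differences that did not pass the limma test here. The authors' p-values come from a different test, named AC test in the file headers, so the listing is not a like measure. The list took in 4.16% of the tested genes, and 2.52% on the lower side. The authors' deposited tables for LTKOFstL/L against Control and against LDKO list 0 members and 7.72% and 8.74% of the tested genes.

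**Figure D3:**
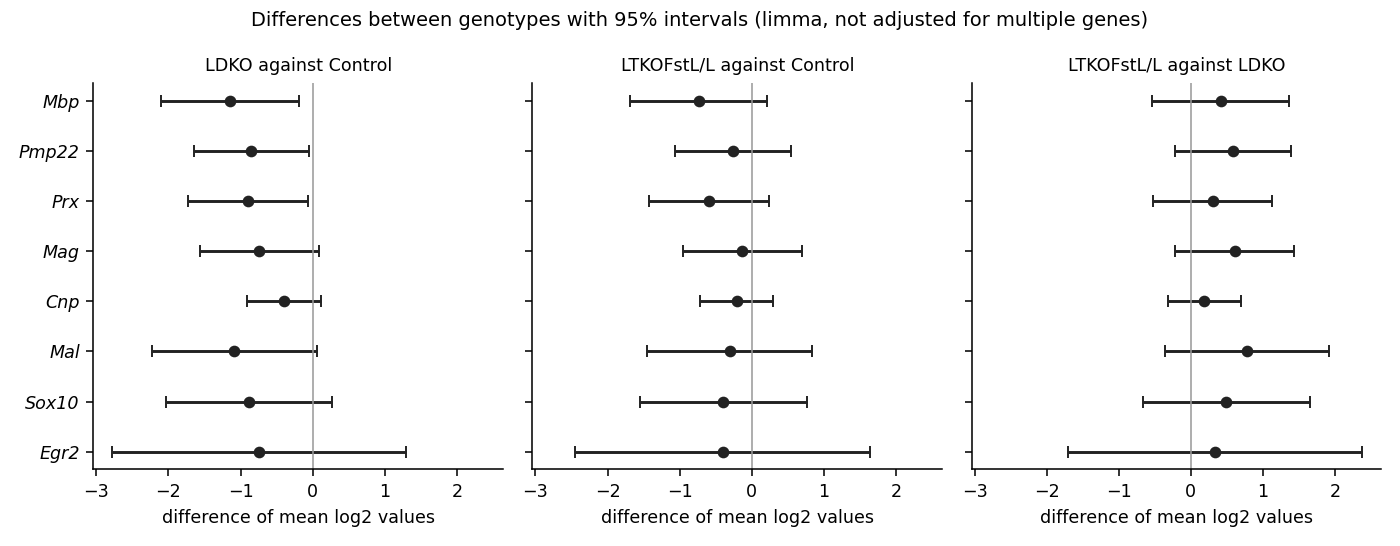
Difference of genotype means in log2 units (horizontal axis) for the 8 genes in the 3 comparisons, with 95% intervals from limma that are not adjusted for multiple genes. All 8 points are below 0 for LDKO against Control, and the intervals of Mbp, Pmp22 and Prx end below 0.

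**Figure D4:**
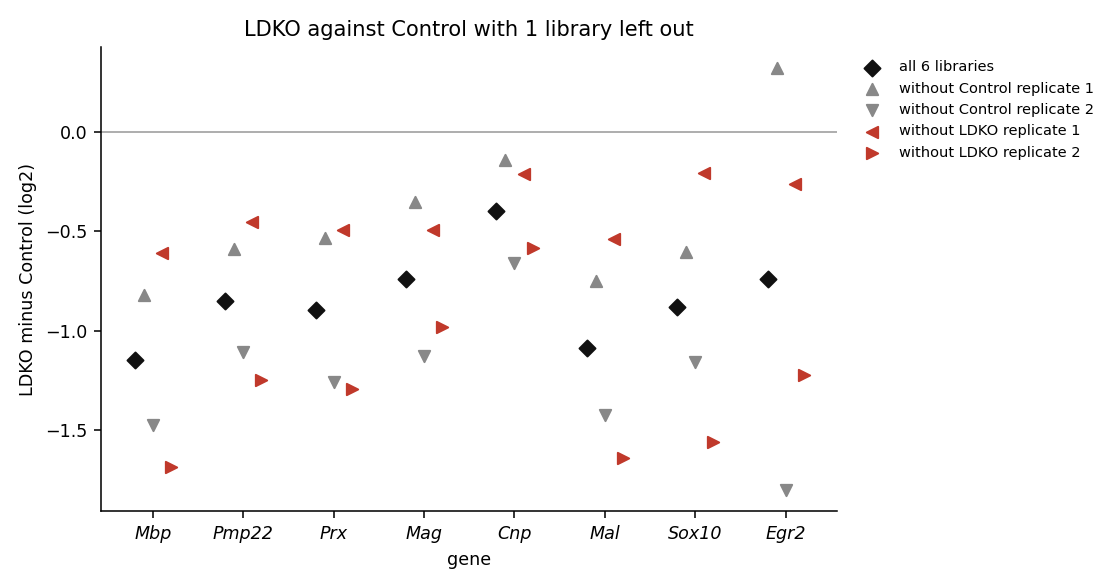
LDKO minus Control in log2 units (vertical axis) for each gene (horizontal axis) with all 6 libraries (diamonds) and with 1 library left out (triangles). Leaving out LDKO replicate 1 moves Mbp from −1.15 to −0.61, and leaving out Control replicate 1 moves Egr2 to 0.32.

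The second comparison, LTKOFstL/L against Control, adds the liver deletion of Fst and has the same limit. Of all tested genes, 49.9% had a lower mean in LTKOFstL/L, with a median of 0.00054. All 8 members again had a lower mean than in Control, with a median of −0.35, but both comparisons use the same Control libraries. None passed the test, where 2.07% of genes did, and none had an unadjusted p under 0.05, where 15.3% did. The differences were −0.74 for Mbp (adjusted p = 0.456), −0.60 for Prx, −0.40 for Egr2, −0.40 for Sox10, −0.31 for Mal, −0.26 for Pmp22, −0.21 for Cnp and −0.13 for Mag. Mbp was the 1 member whose libraries did not overlap, with both LTKOFstL/L libraries below both of Control, as was the case for 24.8% of all tested genes. The gap between the Control libraries exceeded the difference for 7 members.

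The third comparison, LTKOFstL/L against LDKO, sets mice with the added Fst deletion against those without it. Other differences between the mouse lines or samples cannot be told apart from that deletion. Of all tested genes, 49.5% had a lower mean in LTKOFstL/L than in LDKO, with a median of 0.0054. All 8 members had a higher mean in LTKOFstL/L, with a median of 0.45, in a comparison that shares the LDKO libraries with the first. None passed the test, where 2.61% of genes did, and none had an unadjusted p under 0.05, where 19.0% did. Mal differed by 0.78 (adjusted p = 0.439), Mag by 0.61 (adjusted p = 0.406) and Pmp22 by 0.59 (adjusted p = 0.408). Sox10 differed by 0.49, Mbp by 0.41, Egr2 by 0.34, Prx by 0.30 and Cnp by 0.19. Mag was the 1 member whose LTKOFstL/L libraries both lay above both LDKO libraries, as did 25.0% of all tested genes. The gap between the LDKO libraries exceeded the difference for 7 members. The order of means was therefore Control, LTKOFstL/L, LDKO for every member, and no neighbouring pair in that order passed the test for any member. The share of all tested genes with this order of means is not given.

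The comparison was extended to other genes of the myelin sheath. Of 10 such genes, all tested, 7 were lowest in LDKO replicate 1 and 6 were highest in Control replicate 1. Lower means were found for 9 of the 10 in LDKO against Control (median −0.65), for 8 in LTKOFstL/L against Control (median −0.32) and for 4 in LTKOFstL/L against LDKO (median 0.081), where all 8 members had higher means. The authors' deposited tables list Ncmap, a small membrane protein of non-compact myelin, as lower in LTKOFstL/L against both Control (−1.63) and LDKO (−1.11). Gjb1, a connexin of the gap junctions in non-compact myelin, stands in the authors' deposited table at −1.21 for LTKOFstL/L against Control. None of the 10 passed the limma test in any comparison. Drp2, a dystrophin-related protein that binds periaxin, differed by −0.89 in LDKO (adjusted p = 0.626), against −0.90 for Prx. Pmp2, a fatty acid binding protein of myelin, differed by −1.15 (adjusted p = 0.824) but was higher in Control replicate 2 (0.55) than in Control replicate 1 (−0.14).

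The enzymes of myelin lipids had lower LDKO means for 5 of 5 genes, with a median of −0.79 and 0 that passed the test. Fa2h, which makes the hydroxylated fatty acids of myelin lipids, was at 0.97 and 0.42 in Control, at −0.96 and −0.35 in LDKO, and at 0.06 and −0.06 in LTKOFstL/L. Its LDKO difference of −1.35 ± 0.33 had an adjusted p of 0.389. Ugt8a, the enzyme that makes galactosylceramide, was at −3.58 in LDKO replicate 1 and between −0.04 and 1.16 in the other 5 libraries. Aspa, which cleaves N-acetylaspartate, differed by −0.79 (adjusted p = 0.693).

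Across all 8 lists of nerve genes beside the members, 47 of 64 genes were tested and 0 passed in any of the 3 comparisons. In LDKO 37 of the 47 had a lower mean than in Control, with a median of −0.42. The corresponding values were 26 and −0.16 for LTKOFstL/L against Control, and 16 and 0.26 for LTKOFstL/L against LDKO. Among genes of the node of Ranvier, Gldn differed by −0.57, Nfasc by −0.58 and Cntn1 by −0.11 in LDKO. Among transcription factors and cofactors of Schwann cells, 6 of 6 tested had lower LDKO means with a median of −0.21, and Nab1, a cofactor that binds EGR proteins, differed by −0.72 (adjusted p = 0.687). Pou3f1 and Nfatc4 differed by −0.28 and −0.24.

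Of 7 tested markers of non-myelinating and immature Schwann cells, 4 had lower LDKO means, with a median over the 7 of −0.52. Cdh19, a cadherin of Schwann cell precursors, was at 1.42 and 1.35 in Control, at −2.80 and −0.84 in LDKO, and at 0.59 and −0.59 in LTKOFstL/L. Both LDKO libraries lay below the other 4, and its LDKO difference of −3.21 ± 0.81 had an adjusted p of 0.354. S100b, a calcium-binding protein of Schwann cells, differed by −1.004 (adjusted p = 0.573) and L1cam, an adhesion molecule of unmyelinated axons and their Schwann cells, by −0.95 (adjusted p = 0.655). Cdh19 and S100b are in the authors' deposited table of LDKO against Control at −3.21 and −1.004. For LTKOFstL/L against Control, the authors list Cdh19 at −1.39. In the other direction, their table of LTKOFstL/L against LDKO lists Cdh19 (1.82), L1cam (1.09) and Ugt8a (2.499) as higher in LTKOFstL/L.

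Receptors and axonal genes had LDKO means on both sides of Control. The median over 9 tested receptors and ligands was −0.35 in LDKO, but Erbb2, a subunit of the neuregulin receptor, measured −0.11 and −0.15 in Control and 0.43 and 0.41 in LDKO. Its difference of 0.55 had an adjusted p of 0.751. Adam22 and Gfra3 differed by −0.99 and −0.92. Of 11 genes of axons and motor neurons only 3 were tested, and Chat and Slc18a3 were at the floor in all 6 libraries. The neuronal ubiquitin hydrolase Uchl1 differed by 0.97 (adjusted p = 0.635), Tubb3 by 0.33 and Stmn2 by −0.55. Transcripts made in motor neuron cell bodies lie outside the muscle, so these genes are a limited measure of nerve in the sample.

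Of 5 lists for other cell types, those of fibroblasts, adipocytes and endothelium had their lowest median in LDKO replicate 1, as the members did. None of the 5 had its highest median in Control replicate 1. Among the nerve lists, only those of other myelin sheath genes and of nodes had it there, so most nerve lists did not. The part of the other cell types in the values of the myelin genes was not tested. For 8 fibroblast and tendon genes the library medians were at −0.08 and 0.21 in Control, at −0.66 and −0.52 in LDKO, and at 0.42 and 0.22 in LTKOFstL/L, and all 8 had lower LDKO means (median −0.86). Kera, a proteoglycan of tendon, differed by −2.65 in LDKO (adjusted p = 0.175). In LTKOFstL/L against LDKO 3 of the 8 rose, Tnmd by 1.74 (adjusted p = 0.022), Kera by 3.14 (adjusted p = 0.023) and Col1a1 by 1.50 (adjusted p = 0.044). Among smooth muscle, endothelial and leukocyte genes, the largest LDKO differences were −0.72 for Acta2 (adjusted p = 0.364), −0.66 for Tek (adjusted p = 0.653) and −1.12 for Ptprc (adjusted p = 0.812). The adipocyte median was −0.35 and −0.15 in Control replicates 1 and 2, −0.86 in LDKO replicate 1, 0.07 in LDKO replicate 2 and 1.74 in LTKOFstL/L replicate 1, and the adipocyte hormone gene Retn rose by 3.29 in LTKOFstL/L against Control (adjusted p = 0.023) and by 3.20 against LDKO (adjusted p = 0.024). The endothelial median stayed between −0.10 and 0.15, the smooth muscle and pericyte median between −0.35 and 0.15, and the macrophage and leukocyte median between −0.38 and 0.18. Sums of levels are not given for these lists because levels are known only as brackets.

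**Figure D5:**
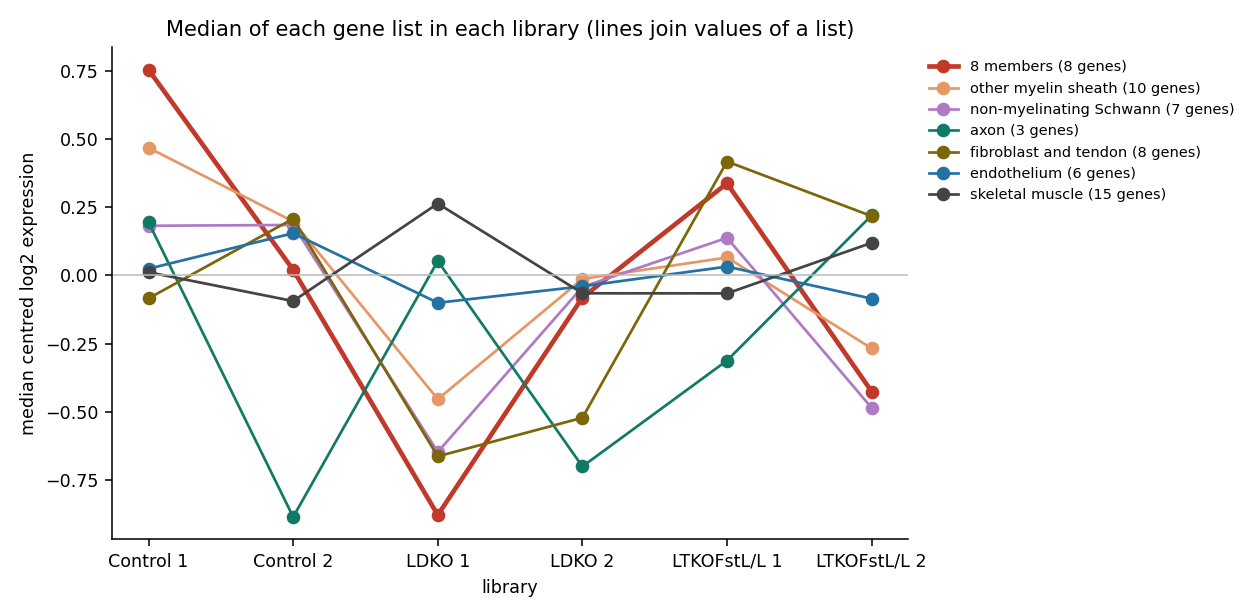
Median centred log2 expression (vertical axis) of the 8 genes and of 6 marker lists in each library (horizontal axis), where lines join the values of a list and the libraries have no order. The members span 0.75 to −0.88, the fibroblast and tendon genes −0.66 to 0.42 and the axon genes −0.89 to 0.22. The muscle genes span −0.09 to 0.26 and the endothelial genes −0.10 to 0.15. The adipocyte genes, which are not drawn, span −0.86 to 1.74.

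The genes whose values lay nearest to the median of the members over the 6 libraries were ranked by root mean square difference, after each was centred on its mean. The median of all tested genes was 0.595, and 43 tested genes were within 0.25, of which 6 were members. Among the 10 nearest outside the members were Gm13562 (0.142), Kif19a (0.142), Kif1a (0.144), Ggh (0.148), Gm37123 (0.149), Ccl19 (0.181) and Rtn1 (0.199). Kif1a encodes an axonal transport motor and was at 0.85 and −0.10 in Control, at −0.69 and 0.10 in LDKO, and at 0.65 and −0.14 in LTKOFstL/L. S100b and Drp2 were also near, at 0.213 and 0.216. Against the median of the other 7 members, Prx (0.123) and Pmp22 (0.125) were nearest, followed by Sox10 (0.175), Mbp (0.191), Mal (0.211) and Mag (0.213), with Cnp (0.333) and Egr2 (0.524) farthest. The nearness is a description over 6 libraries of 1 tissue.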

How the data were processed

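RNA-seq values of 6 skeletal muscle libraries, 2 per genotype, were taken from the deposited table of all genes. As judged from the deposited values, they are log2 of library-scaled reads with a floor at 1 unit, with the gene's median over libraries subtracted. The submitters' processing notes name the mm10 build. For aligner, counting and normalization nothing is given in the sources used here. The deposited lists of differential genes give log2 differences and p-values of an AC test, per the file headers.

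Levels were recovered from ties at the floor or from rounding steps, and the recovery and the fit were tested on simulated data. Genes with a log2 level of at least 4 (16 units) in at least 2 libraries were tested. All 6 libraries entered a linear model of genotype means in limma 3.58.1 (R 4.3.3), with 3 residual degrees of freedom and robust empirical Bayes priors in 3 strata of the lowest library's level (under 4, 4 to 8, 8 or more). Two-sided p-values were adjusted by Benjamini-Hochberg over all 16881 tested genes, with a threshold of 0.05. "Passed the test" refers to this adjusted p. Differences are of mean log2 values with moderated standard errors.

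The members, the 17 gene lists and the strata were chosen with earlier results of these data known. Named genes were all members, genes of a list that passed, up to 3 genes per nerve list (1 in lists of other cell types) with the largest LDKO difference from Control, and the 10 genes nearest to the members. Some genes that this rule names are not reported here. Coordinates are from GENCODE M21 (53237 of 53342 genes matched by ID). Alternatives changed the variance prior, level filter, samples, scaling, threshold and replicate block, and left out each library.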

Additional observations from a re-analysis of the deposited data

How the results depend on the processing

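No member passed the test under any of 16 alternatives: 375 values were computed for the members, and the lowest adjusted p was 0.169. Among them 16 changed direction, all with 1 library left out. With 1 library left out, the range in LDKO against Control was −1.80 to 0.32 for Egr2. In LTKOFstL/L against Control it was −0.61 to 0.087 for Pmp22, −0.52 to 0.26 for Mag, −0.47 to 0.046 for Cnp, −0.83 to 0.22 for Mal, −0.83 to 0.035 for Sox10 and −1.47 to 0.66 for Egr2. In LTKOFstL/L against LDKO it was −0.13 to 0.95 for Mbp, −0.10 to 0.70 for Prx, −0.00023 to 0.37 for Cnp, −0.19 to 1.16 for Sox10 and −0.53 to 1.20 for Egr2. The median member difference ranged from −1.27 to −0.47, from −0.83 to 0.043 and from −0.050 to 0.90 in the 3 comparisons. Centring the libraries on the muscle genes shifted every gene by −0.14, −0.068 and 0.072.

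The number of all genes that passed depended on the setting. For LDKO against Control it was 39, with 1 under a single prior, 10 under a spline trend, 2 without a level filter, 5 with only the 2 groups fitted, 15 without the acinar genes, 2 without LDKO replicate 1, 3 without Control replicate 1, 5 without either LTKOFstL/L library and up to 52 without LDKO replicate 2. For LTKOFstL/L against Control it was 349, with 43 under a single prior, 94 without a filter, 592 with only the 2 groups, 146 under muscle scaling, 649 at a threshold of 0.10 and 23 (without LTKOFstL/L replicate 1), 47, 67 and 168 without LTKOFstL/L replicate 2 and Control replicates 1 and 2, and 592 without either LDKO library. For LTKOFstL/L against LDKO it was 441, with 59 under a single prior, 199 without a filter, 284 with only the 2 groups, 94 under muscle scaling, 1017 at a threshold of 0.10 and 43 and 45 without LTKOFstL/L replicates 1 and 2, 284 without either Control library, and 366 and 658 without LDKO replicates 1 and 2. Where a genotype outside the comparison loses a library, it adds nothing to the spread, and a lone library is assumed to vary like the others. The cause of these changes was not tested.

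Replicate numbers are shared by the genotypes, and the labels do not say what they stand for. Deviations of same-numbered libraries correlated at 0.20 (Control and LDKO), −0.051 (Control and LTKOFstL/L) and −0.20 (LDKO and LTKOFstL/L). With so few libraries per genotype, these correlations cannot decide whether the samples were paired. With the replicate block 46 genes passed in LDKO against Control and 291 in LTKOFstL/L against LDKO, and 0 members passed in any comparison. The values of Egr2 rest on few reads, about 7.55 to 11.6 at its median library. With a level of at least 8 only Mbp, Pmp22, Prx, Cnp and Mal were tested.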

Other observations

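Egr2 is also known as an immediate early gene in other cells, and 8 such genes were listed, of which 7 were tested. All 7 had a lower LDKO than Control mean (median difference −0.74), and 0 passed the test. Egr1, a related immediate early factor, was at −0.37 and 0.12 in Control, at −0.54 and −0.12 in LDKO, and at 2.44 and 1.20 in LTKOFstL/L. It rose by 2.15 in LTKOFstL/L against LDKO (adjusted p = 0.049, both libraries higher than both of LDKO), and Egr2 differed there by 0.34. Jun and Nr4a1 fell in LTKOFstL/L against Control by 1.45 (adjusted p = 0.020) and 1.47 (adjusted p = 0.039), whereas Egr2 differed by −0.40 in the same comparison. Egr3 was at −2.74 in LDKO replicate 1 and between −0.66 and 0.65 in the other 5 libraries. Whether Egr2 differs from these genes was not tested.

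The perineurium, the sheath of cells around nerve bundles, was represented by 3 genes. The tight junction gene Cldn1 was at −0.17 and 0.17 in Control, at −0.87 and −0.49 in LDKO, and at 0.59 and 0.54 in LTKOFstL/L. Its difference of 1.24 between LTKOFstL/L and LDKO had an adjusted p of 0.068, with both libraries higher. Lypd2 measured 1.65 and 0.76 in LTKOFstL/L and −0.51 and −0.81 in LDKO, a difference of 1.87 with an adjusted p of 0.165. Cldn1 and Lypd2 were higher in both LTKOFstL/L libraries than in both Control libraries. The same held for the myelin lipid gene Ugt8a, at 1.16 and 0.22 in LTKOFstL/L and −0.04 and 0.04 in Control. The Schwann cell genes Pou3f1, Gfra3 and Erbb2 were also higher in this way, as were Retn, Tnmd, Col1a1 and Egr1 outside the nerve lists. The share of all tested genes that were higher in this way is not given. The glucose transporter Slc2a1 measured −0.24 and −0.32 in LTKOFstL/L and 0.47 and 0.24 in LDKO.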
